A study of Mus musculus with 6 samples.

Results

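Small RNA-seq of the Achilles tendon compared one Dicer cKO library with one Control library, and all miRNAs with enough reads were described, higher as well as lower. The deposited table lists 2265 features, 1178 of them named as miRNA hairpin genes (Mir), and the 334 whose mean normalized read count over the 2 libraries was above 15 were taken. The tendons came from mice at 4 weeks of age. Control mice were Dicer f/f without Cre, ScxHt mice carried 1 ScxCre knock-in allele with Dicer +/+, and Dicer cKO mice carried the same ScxCre knock-in allele with Dicer f/f. Each genotype had 1 sample, numbered 211 for Control, 212 for ScxHt and 213 for Dicer cKO, from which 1 small RNA-seq and 1 RNA-seq library were made. ScxCre is active in tendons and ligaments, and the knock-in occupies 1 Scx allele, so a Dicer cKO/Control ratio (called the cKO ratio) holds the Cre allele and the loss of Dicer together. The ScxHt/Control ratio (the ScxHt ratio) is therefore given beside it for the miRNAs described in detail, and a ratio with no other name is the cKO ratio. Both share the Control library.

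Dicer is the RNase that cuts precursor hairpins into mature miRNAs, which then guide Argonaute proteins to messenger RNAs that match their seed, bases 2 to 8. Many miRNAs are cut from one common transcript with their neighbours, so the loci of a genomic cluster often share a promoter. Some miRNAs are made mainly in one cell type, such as miR-1, miR-133 and miR-206 in muscle fibres, and a tendon sample holds tenocytes together with nerve, vessel, blood and adjoining muscle.

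The counts are per hairpin gene, so the arms of a hairpin cannot be told apart, and loci that give the same mature miRNA can share reads. Of the 334 features, 275 have a mature sequence in the RefSeq miRNA table (GRCm38.p6), printed here from 5′ to 3′ with the seed in capitals. The first set holds the miRNAs of the miR-17-92 cluster and of its paralog in Mcm7, whose ratios differed between seeds.

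miR-17-5p: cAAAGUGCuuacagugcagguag
miR-20a-5p: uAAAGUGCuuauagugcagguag
miR-106b-5p: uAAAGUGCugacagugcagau
miR-93-5p: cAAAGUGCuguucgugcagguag
miR-18a-5p: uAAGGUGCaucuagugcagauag
miR-19a-3p: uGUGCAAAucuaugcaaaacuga
miR-19b-3p: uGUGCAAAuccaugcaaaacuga
miR-92a-3p: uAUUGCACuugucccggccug
miR-25-3p: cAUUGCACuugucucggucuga

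The second set holds miRNAs with higher counts in the Dicer cKO library that are known from glia, sensory neurons, imprinted genes, muscle and neurons.

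miR-338-3p: uCCAGCAUcagugauuuuguug
miR-183-5p: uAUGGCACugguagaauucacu
miR-182-5p: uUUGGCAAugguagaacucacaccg
miR-335-5p: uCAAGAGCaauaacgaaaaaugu
miR-483-3p: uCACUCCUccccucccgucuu
miR-206-3p: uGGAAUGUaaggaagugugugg
miR-133b-3p: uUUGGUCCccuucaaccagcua
miR-128-3p: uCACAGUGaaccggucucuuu

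The third set holds miRNAs with lower counts and their relatives of the same seed, where miR-99a shares its seed with miR-100 and miR-34a with miR-34b.

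miR-99a-5p: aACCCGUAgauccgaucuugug
miR-100-5p: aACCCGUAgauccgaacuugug
miR-34b-5p: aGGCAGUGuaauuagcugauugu
miR-34a-5p: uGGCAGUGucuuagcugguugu
miR-196b-5p: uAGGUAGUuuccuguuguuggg
miR-511-3p: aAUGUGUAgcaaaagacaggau
miR-1247-5p: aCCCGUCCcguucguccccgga

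The libraries hold 10986541 counts in Control, 8437993 in ScxHt and 8435829 in Dicer cKO. In RNA-seq of the same tendons, Dicer1 had 1919 reads in Control, 2025 in ScxHt and 1621 in Dicer cKO, a cKO ratio of 0.877 (95% counting interval 0.821 to 0.938). That count covers the whole gene, including exons outside the floxed part, so it checks the deletion only in part. Scx, in which the Cre knock-in sits, had 1055 reads in Control, 686 in ScxHt and 371 in Dicer cKO, a cKO ratio of 0.365 (0.324 to 0.411) and a ScxHt ratio of 0.623 (0.565 to 0.687). All 10 tendon marker mRNAs, such as Tnmd and Col1a1, were present in every library, and all 10 had a Dicer cKO/Control interval below 1, as had 28.5% of the 13321 genes with enough reads. At these depths small differences clear 1, such as Tnmd at 0.948 (0.923 to 0.975), while 6 of the 10 were past the threshold for lower (4.19% of all genes).

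A miRNA is called higher above a ratio of normalized counts of 1.67 and lower below 0.60. With 1 library on each side there is no replicate error, no test and no p-value, and every interval is an exact 95% interval for counting error only. In whole tissue, fewer cells of a type and less RNA per cell cannot be told apart. Size factors centre the 2 libraries on their typical miRNA, so a loss shared by all miRNAs would not show in these ratios.

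Above the minimum, higher miRNAs outnumbered lower ones, with 28 higher (8.38% of the 334) and 14 lower (4.19%), together 12.6%. The Dicer cKO/Control log2 ratios had a median of -0.02, quartiles of -0.29 and 0.34 and a range from -3.31 to 1.78. Intervals lay wholly above 1 for 104 features (31.1%) and wholly below 1 for 106 (31.7%). The interval stayed clear of 1 in 24 of 28 higher features and in 13 of 14 lower ones, the exceptions being Mir495, Mir378d, Mir701 and Gm47294 on the higher side and Mir467d on the lower. Under scaling to the total count, the numbers were 46 higher and 9 lower, and the order turned with no minimum count, at 140 higher and 191 lower of 704. The 10 features with the most reads in Control, loci of let-7c, miR-125b, miR-199, let-7b and miR-16, had ratios from 0.731 to 0.942, and those of miR-125b lay above 1 under total-count scaling. For ScxHt/Control, 33 of 332 features were past a threshold (9.94%), 10 higher (3.01%) and 23 lower (6.93%), and intervals lay wholly above 1 for 81 (24.4%) and wholly below 1 for 109 (32.8%).

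**Figure D1:**
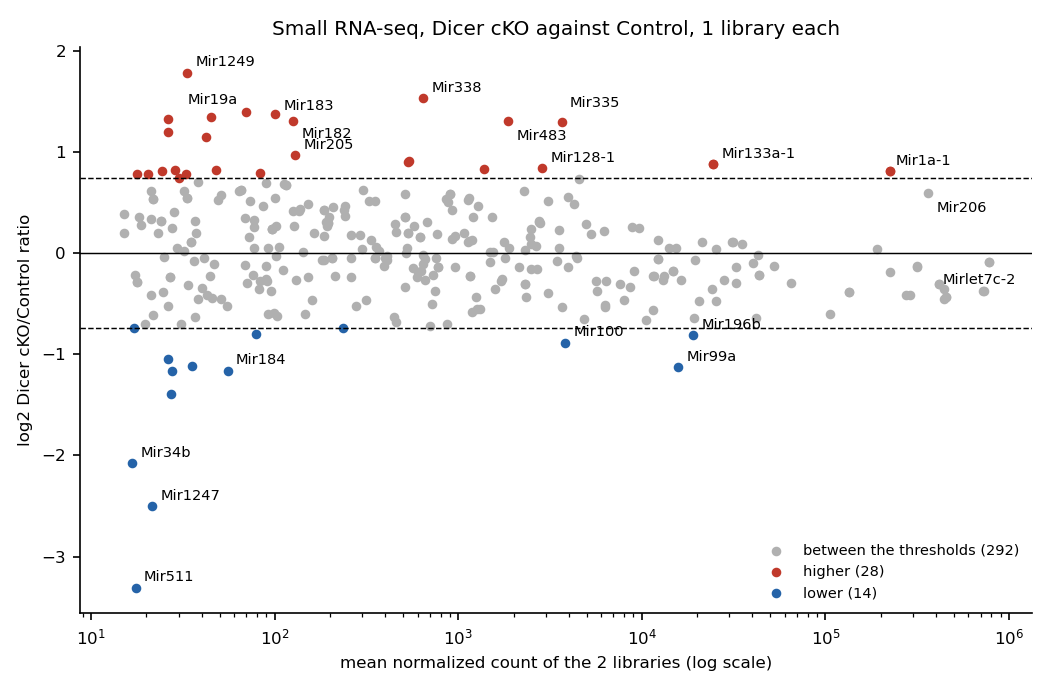
Each point is 1 of 334 small RNA features, with its mean normalized count over the Dicer cKO and Control libraries on a log axis and its log2 Dicer cKO/Control ratio. Dashed lines mark ratios of 1.67 and 0.60, past which 28 features were higher and 14 lower, and the muscle miRNAs of the Mir1a and Mir133a loci are the higher features with the most reads.

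The miRNAs of skeletal and heart muscle formed the most abundant higher group. Mir1a-1 had 174274 reads in Control, 98934 in ScxHt and 266160 in Dicer cKO, a cKO ratio of 1.75 (1.74 to 1.76) and a ScxHt ratio of 0.640 (0.635 to 0.645). Mir133a-2, its partner on chromosome 2, had 18418, 18362 and 29599 reads, with ratios of 1.84 (1.81 to 1.88) and 1.12 (1.10 to 1.15). Dicer cKO was the highest of the 3 libraries for both, while ScxHt was the lowest for Mir1a-1 and level with Control in raw reads for Mir133a-2. The copies on chromosome 18, Mir1a-2 and Mir133a-1, share nearly all of these reads and had the same ratios to 3 digits as their counterparts.

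Mir206, a miRNA specific to skeletal muscle (GRCm38 chromosome 1, 20679010 to 20679082, exon of Gm28653), had 310922 reads in Control, 134734 in ScxHt and 408434 in Dicer cKO. Its cKO ratio was 1.51 (1.5 to 1.51) and its ScxHt ratio 0.488 (0.485 to 0.491), so it lay below the threshold for higher in the first and past the threshold for lower in the second. Mir133b of the same cluster had 288, 243 and 358 reads and a cKO ratio of 1.42 (1.22 to 1.67). The miRNAs hosted by slow myosin genes behaved in the same order over the 3 libraries. Mir208b, in an intron of Myh7, had 256, 137 and 344 reads, a ratio of 1.54 (1.31 to 1.82) beside 0.603 (0.486 to 0.745) for ScxHt/Control. Mir499, in an intron of Myh7b, had 73, 42 and 103 reads, with ratios of 1.62 (1.19 to 2.21) and 0.648 (0.433 to 0.960).

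The 8 muscle miRNA loci above the minimum have 6 mature names. The 4 Mir1a and Mir133a loci were higher (8.38% of all features), none of the 8 was lower and all 8 intervals lay above 1 (31.1%). The median cKO ratio of the 8 was 1.68, with a range from 1.42 to 1.84, and their median ScxHt ratio was 0.644. Over all features the median log2 cKO ratio was -0.02. With each miRNA name entered once, the list held 4.59% of counts in Control, 2.99% in ScxHt and 8.36% in Dicer cKO. The totals count repeated loci more than once. The muscle mRNAs of the same samples were high in Dicer cKO as well. All 20 skeletal muscle mRNAs had a Dicer cKO/Control interval above 1 (21.6% of all genes) and 14 were higher (3.87% of 13321 genes were higher), with a median log2 ratio of 0.94 beside -0.22 for ScxHt/Control. Ttn, the giant spring protein of the sarcomere, had an RNA-seq cKO ratio of 1.60 (1.60 to 1.61) and ScxHt ratio of 0.458 (0.456 to 0.460). The list was divided in ScxHt, where 5 of the 20 lay above 1, led by 4.70 (4.59 to 4.81) for Myh4, a fast myosin, whose cKO ratio was 6.37 (6.22 to 6.52). The 7 slow muscle mRNAs had a median log2 ratio of 0.32 in Dicer cKO and -1.5 in ScxHt, and Myh7, the host of Mir208b, had ratios of 1.21 (1.2 to 1.23) and 0.334 (0.328 to 0.340). The part of adjoining muscle in the miRNA ratios was not tested.

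miRNAs known from myelinating glia and sensory neurons had the highest median ratio of the lists by tissue, 2.47 over 5 members with 4 mature names. The lists were chosen with earlier results of these data known, so this rank is descriptive only. Of the 5, 3 were higher (8.38% of all features) and 1 lower (4.19%). Mir338, a miRNA of myelinating glia in an intron of Aatk (chromosome 11, 120014765 to 120014862), had 354 reads in Control, 335 in ScxHt and 892 in Dicer cKO. Its cKO ratio was 2.89 (2.55 to 3.28), its ScxHt ratio 1.07 (0.915 to 1.24), and the RNA-seq cKO ratio of its host Aatk 1.21 (0.996 to 1.46). Control and ScxHt lay close together and Dicer cKO stood apart.

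Mir183 and Mir182, neighbours on chromosome 6 that are known from sensory organs and sensory neurons, were the other 2 higher members. Mir183 (30169668 to 30169737) had 60 reads in Control, 44 in ScxHt and 136 in Dicer cKO, with a cKO ratio of 2.60 (1.90 to 3.58) and a ScxHt ratio of 0.826 (0.547 to 1.24). Mir182 (30165918 to 30165992) had 78, 60 and 168 reads, with ratios of 2.47 (1.88 to 3.27) and 0.867 (0.608 to 1.23). Mir96, between them, was below the minimum. The loci of miR-219a, which is abundant in oligodendrocytes of the brain, were not higher. Mir219a-2 had 52, 37 and 21 reads and was lower, at 0.463 (0.265 to 0.782). Mir219a-1 had 56, 29 and 36 reads and a ratio of 0.737 (0.471 to 1.14).

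The Schwann cell mRNAs of the same samples were also high in Dicer cKO. Of 11 with enough reads, 10 were higher (3.87% of all genes) and all 11 intervals lay above 1 (21.6% of all genes). The median log2 cKO ratio was 2.90 and the median log2 ScxHt ratio -0.11. Over all 14 markers of the list, normalized counts summed to 3995 in Control, 4757 in ScxHt and 12522 in Dicer cKO. Most of the Control sum came from a single marker with a cKO ratio of 1.34 (1.28 to 1.41) and a ScxHt ratio of 1.27 (1.21 to 1.33). No marker of the list was at 0 in any library. The part of nerve tissue in the Mir338, Mir183 and Mir182 ratios was not tested.

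The 11 loci of miRNAs known from central neurons have 5 mature names. Of these loci, 3 were higher (8.38% of all features), namely both Mir128 loci and Mir138-2, and none was lower. Ratios lay above 1 for 9 of the 11 (49.4% of all features). The median ratio was 1.18, the value of the Mir9 loci. Mir128-1, in an intron of R3hdm1, had 2190 reads in Control, 1676 in ScxHt and 3423 in Dicer cKO, with a cKO ratio of 1.79 (1.70 to 1.89) and a ScxHt ratio of 0.862 (0.809 to 0.919). Mir128-2, in an intron of Arpp21, had 1056, 863 and 1643 reads, with ratios of 1.78 (1.65 to 1.93) and 0.921 (0.841 to 1.01). The host mRNAs did not share one pattern. R3hdm1 had an RNA-seq cKO ratio of 0.991 (0.933 to 1.05), and Arpp21 one of 1.42 (1.24 to 1.63). miR-128 is the same mature miRNA from both loci. Their counts differ, and how reads of the mature miRNA were divided between the loci is not known. Mir138-2 had 22, 13 and 34 reads and a ratio of 1.77 (1.01 to 3.18). Mir138-1, which gives the same mature miRNA, had 31, 19 and 44 reads and a ratio of 1.63, under the threshold. The 3 Mir9 loci, with 95, 77 and 98 reads each, had a ratio of 1.18 (0.882 to 1.58), a difference not detectable at this depth. Both Mir129 loci lay below 1, at 0.860 (0.409 to 1.77) for Mir129-1 and 0.819 (0.393 to 1.67) for Mir129-2, with intervals that reach past 1.

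**Figure D2:**
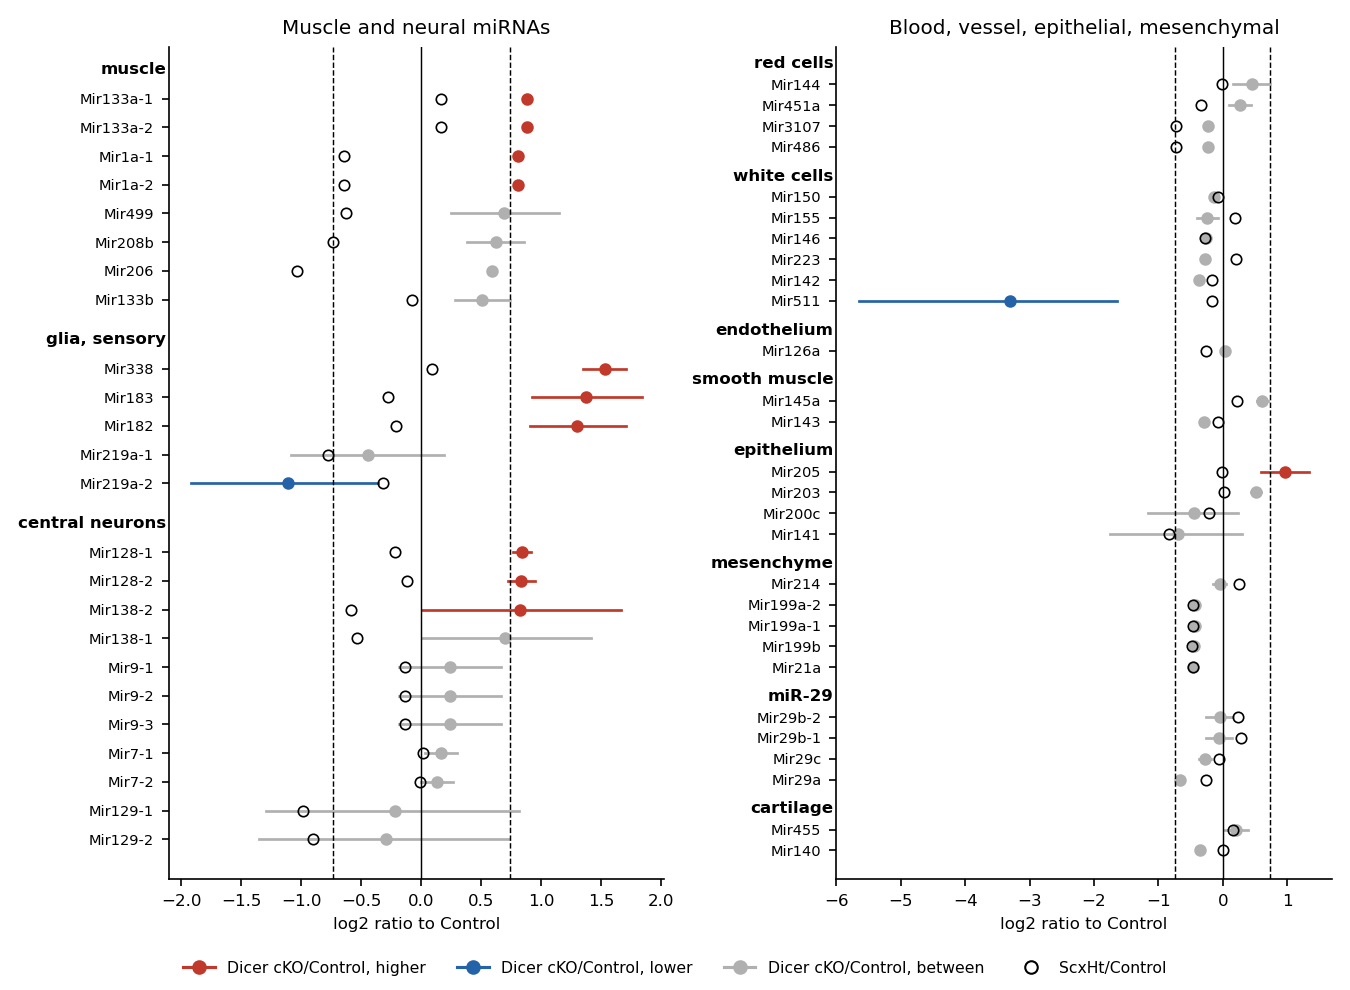
Log2 ratios to Control of miRNAs grouped by tissue of expression, with filled points for Dicer cKO/Control, lines for their 95% counting intervals, open circles for ScxHt/Control and dashed lines at ratios of 1.67 and 0.60. All 8 muscle miRNA loci lie right of 0 for Dicer cKO/Control with a median ratio of 1.68. The mesenchymal Mir199a, Mir199b and Mir21a lie left of 0 in both comparisons.

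Red blood cell miRNAs had ratios nearer to 1 than red blood cell mRNAs. None of the 4 red blood cell miRNAs was past a threshold, and their cKO ratios were 1.37 (1.12 to 1.67) for Mir144, 1.2 (1.07 to 1.35) for Mir451a and 0.855 (0.833 to 0.877) for both Mir486 and Mir3107, which overlap on opposite strands and share reads. The processing of miR-451 uses Argonaute 2 in place of Dicer, and Mir451a had 559 reads in Control, 394 in ScxHt and 586 in Dicer cKO. In RNA-seq, the 5 red blood cell mRNAs with enough reads were all higher (3.87% of all genes), with a median log2 ratio of 1.18. Their median log2 ScxHt ratio was -0.04. The miRNA ScxHt ratios were 0.988 for Mir144, 0.794 for Mir451a and 0.603 (0.586 to 0.621) for Mir486. Ank1, whose intron holds Mir486, had an RNA-seq cKO ratio of 1.41 (1.29 to 1.53) and a ScxHt ratio of 0.706 (0.640 to 0.778). The cell types behind the Mir486 reads were not tested.

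All 6 white blood cell miRNAs had an interval below 1 (31.7% of all features), with a median ratio of 0.830. Only Mir511 was past the threshold for lower (4.19% of all features). Mir150, a miRNA of lymphocytes, was nearest to 1 at 0.911 (0.871 to 0.952) and lay above 1 under total-count scaling. Mir223, a miRNA of myeloid cells, had a ratio of 0.828 (0.798 to 0.860), and Mir142, found across white blood cells, had one of 0.773 (0.744 to 0.802). Mir511, in an intron of Mrc1, had 34 reads in Control, 27 in ScxHt and 3 in Dicer cKO. Its ratio of 0.101 (0.0199 to 0.322) rests on 3 reads in Dicer cKO, which is the floor, and its ScxHt ratio was 0.895 (0.519 to 1.53). The host mRNA Mrc1, a mannose receptor of macrophages, had an RNA-seq cKO ratio of 0.769 (0.713 to 0.829) and ScxHt ratio of 1.68 (1.58 to 1.78). Of the 10 macrophage mRNAs, 1 was lower in Dicer cKO (4.19% of all genes were) and 7 had an interval below 1 (28.5% of all genes), with a median log2 ratio of -0.42 beside 0.76 for ScxHt/Control.

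Vessel and epithelial miRNAs held 1 higher member. Mir126a, made in endothelium from an Egfl7 exon, had a cKO ratio of 1.03 (1.02 to 1.03) with 201949 reads in Control. The smooth muscle pair was split, with 1.53 (1.44 to 1.62) for Mir145a and 0.814 (0.805 to 0.823) for Mir143, although both lie on chromosome 18 within 1434 bases. Mir205, a miRNA of stratified epithelium, had 94 reads in Control, 83 in ScxHt and 160 in Dicer cKO, a ratio of 1.95 (1.5 to 2.54). Mir203, another miRNA of epidermis, had 2720, 2459 and 3394 reads and a ratio of 1.43 (1.36 to 1.5). Mir141 and Mir200c, also of epithelium, lay below 1, at 0.617 (0.298 to 1.23) and 0.732 (0.447 to 1.18), with intervals that reach past 1. The 4 epithelial miRNAs above the minimum had a median ratio of 1.08.

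The miRNAs of fibroblasts and mesenchyme were among the most abundant of the library and none passed a threshold. Mir199a-2, cut from the Dnm3os transcript of mesenchymal cells, had 559555 reads in Control, 362563 in ScxHt and 361918 in Dicer cKO. Its cKO ratio was 0.741 and its ScxHt ratio 0.730. Mir21a, a miRNA raised in fibrosis, had 9908, 6384 and 6275 reads and a ratio of 0.726 (0.703 to 0.749) in both comparisons. For these miRNAs the libraries of both genotypes that carry ScxCre lay together, below Control. Over the 5 members the median cKO ratio was 0.741 and the median ScxHt ratio 0.730. With each miRNA name entered once, the list held 10.2% of counts in Control, 8.53% in ScxHt and 8.51% in Dicer cKO. The totals count repeated loci more than once. Mir199a-2 and Mir199b had near-equal counts, with 559555 and 546684 reads in Control, so the same reads may be entered under both names. Mir214, from the same transcript as Mir199a-2, stood apart with a cKO ratio of 0.967 (0.905 to 1.03) and a ScxHt ratio of 1.2 (1.13 to 1.27).

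The miR-29 family, whose known targets include collagen mRNAs, had a median cKO ratio of 0.891, which lay above 1 under total-count scaling. Mir29a had 13829 reads in Control, 10302 in ScxHt and 7624 in Dicer cKO, a ratio of 0.632 (0.614 to 0.650), and Mir29b-1, in the same cluster, had one of 0.956 (0.831 to 1.10). Of the cartilage miRNAs, Mir140 had a ratio of 0.783 (0.769 to 0.797) and Mir455 one of 1.15 (1.01 to 1.32). The 4 miRNAs known from fat and oxidative muscle had ratios between 0.955 and 1.19. The 4 miRNAs of liver, gut and pancreas above the minimum lay between 0.910 and 1.28.

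**Figure D3:**
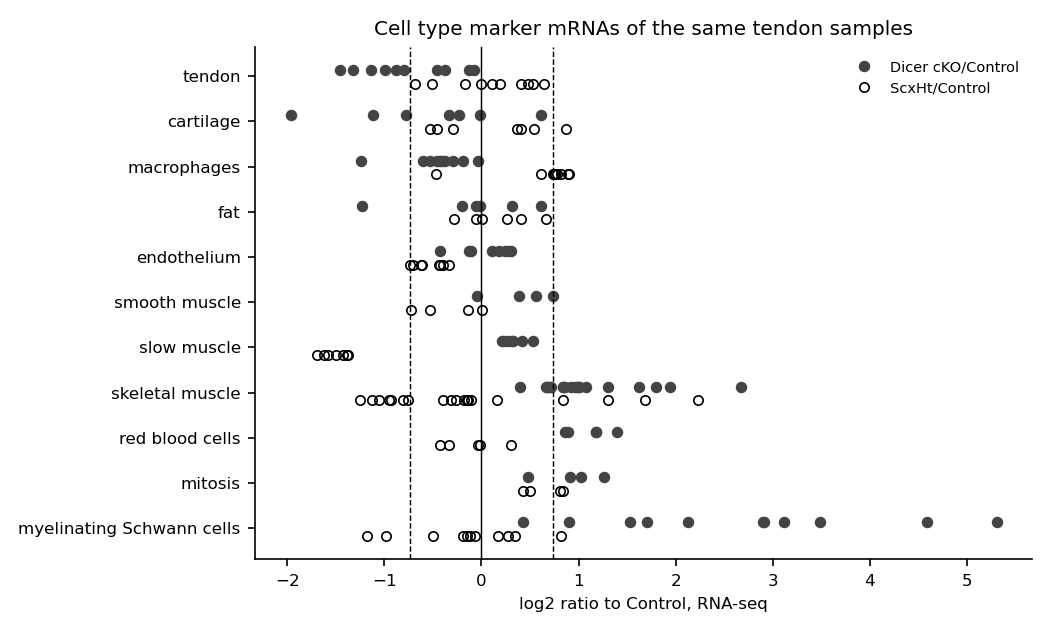
RNA-seq log2 ratios to Control of the marker mRNAs of 11 cell types or states in the same tendon samples, 1 point per gene with a mean normalized count above 50, filled for Dicer cKO/Control and open for ScxHt/Control, with dashed lines at ratios of 1.67 and 0.60. Myelinating Schwann cell mRNAs had a median log2 ratio of 2.90 for Dicer cKO/Control, skeletal muscle mRNAs 0.94 and tendon mRNAs -0.84.

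By genomic cluster, loci on the same strand with gaps of at most 10 kb were joined, which gave 42 chains with 141 members above the minimum. The log2 ratios had an SD of 0.39 within chains, against 0.50 over the same members and 0.56 over all 334 features. Of the 42 chains, 11 held a higher or lower member and none held both kinds, where 12.6% of all features were higher or lower. All members above the minimum were higher in 3 chains, which were the pairs of Mir1a and Mir133a on chromosomes 2 and 18 and the pair of Mir182 and Mir183. The pairs on chromosomes 2 and 18 share nearly all of their reads, so they do not count as separate chains. All members above the minimum were lower in 1 chain, the pair of Mir34b and Mir34c.

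The miR-17-92 cluster on chromosome 14, in the exon of Mir17hg and known for its role in proliferation, did not move as a unit. Mir19a (115044000 to 115044081) had 41 reads in Control, 46 in ScxHt and 94 in Dicer cKO, with a cKO ratio of 2.63 (1.80 to 3.89) and a ScxHt ratio of 1.26 (0.812 to 1.97). Mir19b-1 had 400, 381 and 650 reads, with ratios of 1.86 (1.64 to 2.11) and 1.07 (0.930 to 1.24). The other members of the transcript lay nearer to 1 or below it, at 1.2 (0.905 to 1.6) for Mir17, 1.13 (0.958 to 1.33) for Mir20a, 0.695 (0.378 to 1.25) for Mir18 and 0.760 (0.722 to 0.799) for Mir92-1. The host Mir17hg had 64, 68 and 81 RNA-seq reads, a ratio of 1.31 (0.935 to 1.85).

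Over these loci and others of the same seeds the ratios sorted by seed, a grouping chosen after the values were seen. All 3 loci with the seed GUGCAAA, Mir19a, Mir19b-1 and Mir19b-2 on the X chromosome, were higher, between 1.86 and 2.63. All 5 loci with the seed AUUGCAC had ratios below 1, at 0.655 for Mir32, 0.724 for Mir92-2, 0.760 for Mir92-1, 0.795 for Mir25 and 0.802 for Mir92b. The intervals of Mir32 (0.331 to 1.25) and Mir92b (0.477 to 1.33) reached past 1. The ScxHt ratios of the AUUGCAC loci were 0.721 for Mir25, 0.771 for Mir92-1, 0.825 for Mir92-2, 1.09 for Mir32 and 1.13 for Mir92b. Those of the GUGCAAA loci were 1.26 for Mir19a, 1.07 for Mir19b-1 and 1.08 for Mir19b-2. Of all 334 features, 49.4% had a ratio above 1. Of the 5 loci with the seed AAAGUGC, Mir17, Mir20a, Mir20b and Mir93 lay between 1.13 and 1.22. Mir106b was the exception, with 317 reads in Control and 165 in Dicer cKO, a cKO ratio of 0.597 (0.491 to 0.722) and a ScxHt ratio of 0.789 (0.662 to 0.940). It was past the threshold for lower in none of the 5 other scalings, at 0.610 to 0.678. Mir106b, Mir93 and Mir25 span 498 bases in Mcm7, whose mRNA had a ratio of 1.24 (1.06 to 1.46). Mir93 had 4748, 4959 and 5072 reads and a ratio of 1.22 (1.18 to 1.27). The sorting was seen in 1 library for each genotype, Mir19b-1 and Mir19b-2 share reads, and Mir92-1 and Mir92-2 give the same mature miRNA.

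**Figure D4:**
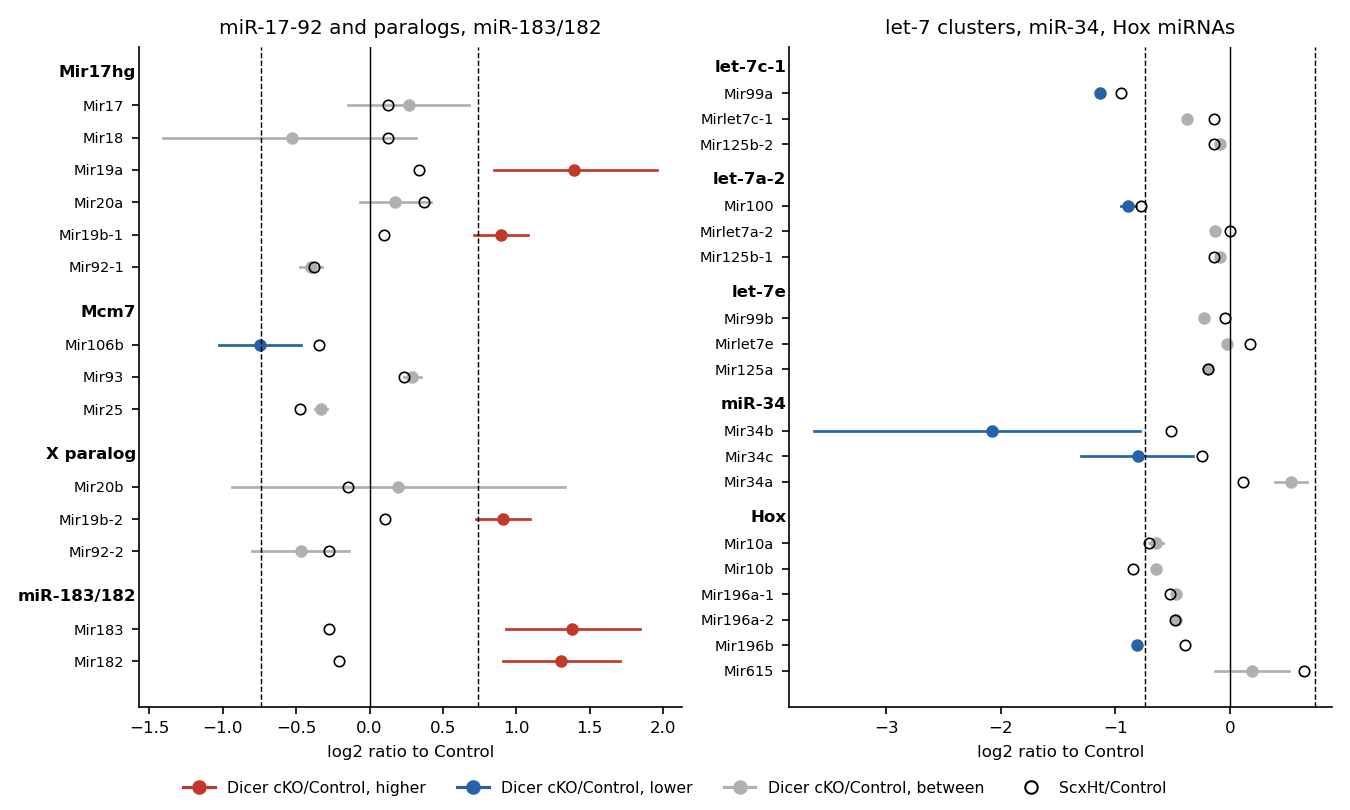
Log2 ratios to Control by genomic cluster or family, with filled points and 95% counting intervals for Dicer cKO/Control, open circles for ScxHt/Control and dashed lines at ratios of 1.67 and 0.60. Within the Mir17hg cluster Mir19a and Mir19b-1 are higher while Mir92-1 lies at 0.760, and Mir99a and Mir100 are lower while the let-7 and miR-125 loci beside them lie between 0.772 and 0.984.

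The clusters of let-7 with miR-99 or miR-100 and miR-125 mark differentiated tissues. All 9 members had an interval below 1 (31.7% of all features) and 2 were lower (4.19%). The median ratio was 0.876, and scaling to the total count moved the median log2 ratio of this list from -0.19 to -0.0068, so a shared direction rests on the size factors. Mir99a, in an intron of Mir99ahg on chromosome 16, had 23215 reads in Control, 10685 in ScxHt and 9254 in Dicer cKO, with ratios of 0.457 (0.446 to 0.468) and, for ScxHt/Control, 0.519 (0.507 to 0.531). Mirlet7c-1, within the same 815 bases of the transcript, had ratios of 0.772 and 0.907. Mir125b-2, further along the transcript, had 0.941 and 0.909. Mir99ahg itself had an RNA-seq cKO ratio of 0.973 (0.908 to 1.04) and a ScxHt ratio of 0.992 (0.928 to 1.06).

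The paralogous cluster on chromosome 9 had the same order of members. Mir100 had 5298 reads in Control, 2739 in ScxHt and 2503 in Dicer cKO, with a cKO ratio of 0.541 (0.516 to 0.568) and a ScxHt ratio of 0.582 (0.556 to 0.610), against 0.912 and 1.0 for Mirlet7a-2 and 0.942 and 0.910 for Mir125b-1. By total counts the cKO ratio of Mir100 was 0.615 and no longer past the threshold. The 2 libraries with ScxCre were closer to each other, since the ratio of Dicer cKO to ScxHt was 0.866 (0.842 to 0.891) at Mir99a and 0.914 (0.865 to 0.965) at Mir100. Mir99b, which shares the seed of miR-99a and lies in another cluster with Mirlet7e and Mir125a, had a ratio of 0.857 (0.836 to 0.878) and its ScxHt ratio was 0.974. The 9 other loci of let-7 and Mir98 had a median ratio of 0.780, from 0.658 for Mirlet7i to 1.08 for Mirlet7d.

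The Hox-cluster miRNAs, which mark position along the body axis, had intervals below 1 in 5 of 6 cases (31.7% of all features). Their median cKO ratio was 0.681 and their median ScxHt ratio 0.707. Mir196b, in an exon of Hoxa9 on chromosome 6, was the only lower member, a call it lost under total-count scaling (0.649) and without features above 1% of a library (0.622). It had 25992 reads in Control, 17632 in ScxHt and 12954 in Dicer cKO, with ratios of 0.571 (0.559 to 0.583) and 0.764 (0.750 to 0.779), while Hoxa9 mRNA had a cKO ratio of 1.09 (0.943 to 1.25) and a ScxHt ratio of 1.52 (1.33 to 1.73). Mir10a and Mir10b, in the HoxB and HoxD clusters, had ratios of 0.638 (0.613 to 0.665) and 0.641 (0.628 to 0.655), and 0.614 and 0.557 for ScxHt/Control. Mir615, in an intron of Hoxc5, was the exception at 1.15 (0.917 to 1.43).

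The miR-34 family, whose genes are known targets of p53, was divided by locus. Mir34b on chromosome 9 (51103562 to 51103645) had 29 reads in Control, 18 in ScxHt and 6 in Dicer cKO, a ratio of 0.237 (0.0805 to 0.581). Mir34c, next to it, had 108, 81 and 54 reads, a ratio of 0.573 (0.405 to 0.802), which was 0.651 by total counts and 0.624 without features above 1% of a library, no longer past the threshold. Mir34a on chromosome 4, with the seed of miR-34b, had 753, 722 and 953 reads, a ratio of 1.45 (1.32 to 1.6). Dicer cKO was thus the lowest library at one locus and the highest at the other. The ScxHt ratios lay closer to 1, at 0.699 (0.366 to 1.3) for Mir34b, 0.845 (0.626 to 1.14) for Mir34c and 1.08 (0.974 to 1.2) for Mir34a.

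Mir335 and Mir483, in introns of the paternally expressed imprinted genes Mest and Igf2, were higher, whereas none of the features above the minimum in introns of Sfmbt2 and Usp29, which are also expressed from the paternal chromosome, was. Mir335, on chromosome 6 (30741299 to 30741396), had 2262 reads in Control, 2203 in ScxHt and 4847 in Dicer cKO, with a cKO ratio of 2.46 (2.34 to 2.58) and a ScxHt ratio of 1.10 (1.03 to 1.16). Mir483, in the growth factor gene, on chromosome 7 (142654924 to 142654996), had 1149, 1133 and 2477 reads, with ratios of 2.47 (2.30 to 2.65) and 1.11 (1.02 to 1.21). Control and ScxHt were close for both, and Dicer cKO was the highest of the 3. The host mRNAs lay in the same direction. Mest had 241, 295 and 380 RNA-seq reads, a ratio of 1.64 (1.39 to 1.93), and Igf2 had 704, 639 and 1113, a ratio of 1.64 (1.49 to 1.81). Neither host mRNA was past 1.67. Mir3099, in Usp29, had 48, 16 and 27 reads and a ratio of 0.645 (0.387 to 1.05), and the 5 features in Sfmbt2 had ratios from 0.598 to 1.2.

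The imprinted Dlk1-Dio3 locus on chromosome 12 holds the largest cluster above the minimum, with 46 of its 61 features between Dlk1 and Dio3. Most of these miRNAs are expressed from the maternal chromosome and are known from embryonic tissue. Of the 46, 3 were higher (6.52%, against 8.38% of all 334 features) and 1 lower (2.17%, against 4.19%), and the median ratio was 1.06. Intervals lay above 1 for 14 and below 1 for 11, beside 31.1% and 31.7% of all features. Mir667 had 27 reads in Control, 61 in ScxHt and 60 in Dicer cKO, a ratio of 2.55 (1.59 to 4.17) in both comparisons, so it lay apart from Control in both genotypes that carry ScxCre. Mir323 had 37, 46 and 57 reads, a ratio of 1.77 (1.15 to 2.75), and Mir495 had 24, 26 and 35 reads, a ratio of 1.67 (0.966 to 2.94).

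The most abundant members of the locus differed less. Mir127 had 49861 reads in Control, 39081 in ScxHt and 37432 in Dicer cKO, a ratio of 0.860 (0.849 to 0.872), and Mir379 had 44626, 36623 and 36360 reads, a ratio of 0.934 (0.921 to 0.947). The largest departures among members with over 1000 reads were 1.67 (1.6 to 1.74) for Mir381, just under the threshold, and 0.678 (0.660 to 0.696) for Mir541. Both are cut from the same cluster within 34736 bases. The long RNAs of the locus, Meg3 and Mirg, had RNA-seq ratios of 0.971 (0.938 to 1.0) and 0.983 (0.899 to 1.07). Mir1247, at the far end in an exon of Dio3os (110278048 to 110278129), had 39 reads in Control, 20 in ScxHt and 6 in Dicer cKO, a cKO ratio of 0.176 (0.0610 to 0.419) and a ScxHt ratio of 0.578 (0.319 to 1.01). It was the only member of the locus under 0.60.

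**Figure D5:**
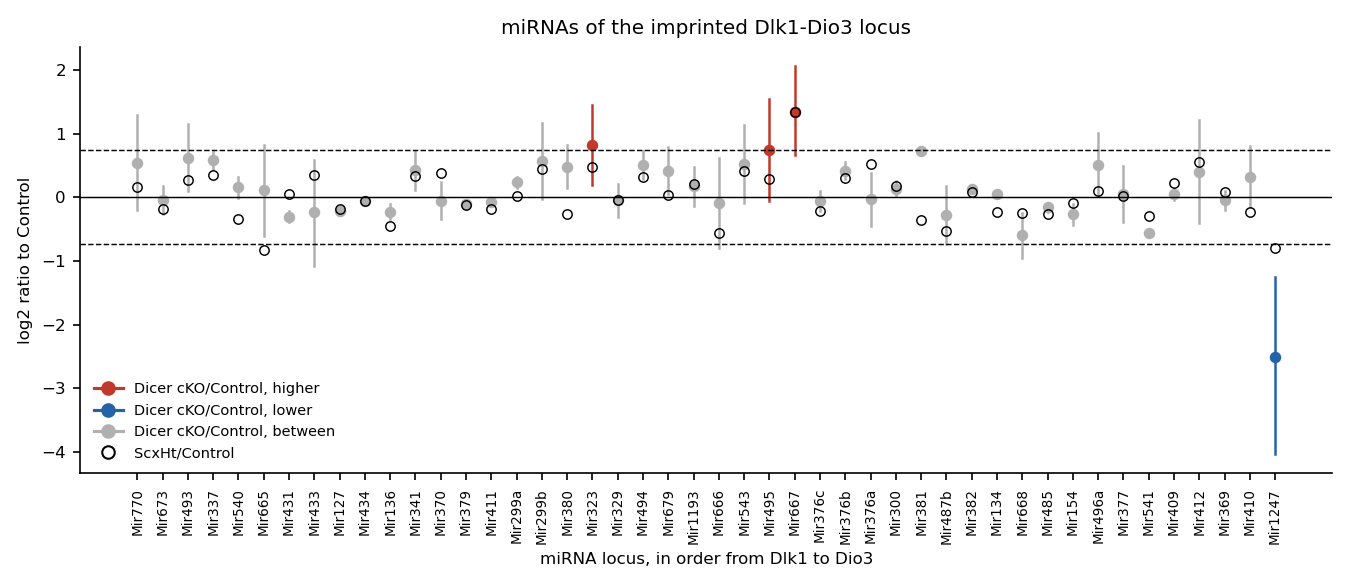
Log2 ratios to Control of the 46 miRNA loci above the minimum between Dlk1 and Dio3, ordered along the chromosome, with filled points and 95% counting intervals for Dicer cKO/Control, open circles for ScxHt/Control and dashed lines at ratios of 1.67 and 0.60. Most loci lie close to 0 with a median ratio of 1.06, and Mir667 at 2.55 and Mir1247 at 0.176 stand furthest out.

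The other clusters showed smaller departures. In an intron of Sfmbt2, 5 of 71 features were above the minimum. One of them, Mir467d, was lower at 0.598 (0.271 to 1.25) with 23 reads in Control, 42 in ScxHt and 12 in Dicer cKO, an interval that reaches past 1. The loci of this cluster are near-identical copies, so the assignment of reads among them is uncertain. The 6 miR-181 loci had a median ratio of 0.697, with 0.670 (0.616 to 0.728) for Mir181b-1 as the lowest. Mir221 and Mir222 had 0.683 (0.631 to 0.739) and 0.847 (0.710 to 1.01). The miR-30 family had a median of 1.11, with 1.47 (1.40 to 1.54) for Mir30c-1 as the highest. The medians were 0.869 for the loci of miR-15, miR-16, miR-195 and miR-497, 0.901 for those of miR-23, miR-27 and miR-24 (above 1 under total-count scaling), 1.05 for the cluster of Mir322 and Mir503 on the X chromosome and 0.739 for that in Clcn5. Mir132, the one locus of its pair with enough reads, had a ratio of 0.771 (0.571 to 1.04).

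The remaining features past a threshold belong to no cluster or tissue list. On the higher side, Mir1249 had 16 reads in Control, 36 in ScxHt and 48 in Dicer cKO, the highest ratio of all at 3.44 (1.92 to 6.49), with 2.53 (1.37 to 4.89) for ScxHt/Control. Mir1983, Mir6538, Gm23134, Mir8114, Mir701, Mir378d, Mir1191 and Gm47294 had between 14 and 65 reads in Control and ratios between 1.72 and 2.51. On the lower side, the Mir135a-1 and Mir135a-2 loci, which give 1 mature miRNA, had 38 and 41 reads in Control, 13 each in ScxHt and 16 each in Dicer cKO. The cKO ratio was 0.483 (0.251 to 0.886) at the first locus and 0.447 (0.234 to 0.814) at the second. Against ScxHt, Dicer cKO stood at 1.23 (0.555 to 2.78) at either locus, so no difference between them was detectable at this depth. Mir6988 had 42, 14 and 14 reads, a ratio of 0.382 (0.193 to 0.714), and Mir184 had 82, 51 and 32 reads, a ratio of 0.447 (0.288 to 0.681).

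The thresholds cut through continuous values. The features nearest the minimum count were Mir145b at a mean of 14.4, outside it, and Mir20b at 15.03, inside it. The nearest to the lower threshold were Mir467d at 0.598, inside, and Mir872 at 0.607, outside, and Mir381 and Mir495 lay to either side of 1.67. Reads amplified by PCR are not independent molecules, so the true error is wider than each counting interval. Of the higher features, 12 of 28 had a mean normalized count below 50, and of the lower features 8 of 14 did.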

How the data were processed

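Small RNA-seq and RNA-seq counts per feature were deposited by the authors without normalization. Per the labels and the study's methods, total RNA was extracted with ISOGEN and a Zymo kit, trimmed reads were mapped to GRCm38 (mm10) with TopHat and Bowtie2, counts were assigned with HTSeq, and DESeq2 was used. Versions and the strand setting are not given in the sources used here, so the separation of antisense features is uncertain. Mir3065, which overlaps Mir338 on the opposite strand, had 48 reads in Control, 37 in ScxHt and 33 in Dicer cKO. Its cKO ratio was 0.788 (0.490 to 1.25), so it did not share the counts of Mir338. The RPKM tables were not used.

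Size factors were the median of ratios over the libraries compared (DESeq2 1.42.0, R 4.3.3). Features needed a mean normalized count above 15 (RNA-seq 50). Ratios carry exact Clopper-Pearson 95% intervals (scipy 1.17.1, Python 3.11.15) that cover counting error only, and the floor was 3 reads. The size factors were 1.07 for Control and 0.934 for Dicer cKO. The table repeats 18 of the 334 features under a second name with identical counts. Positions of 312 features (93.4%) came from GENCODE vM21. Symbols of listed miRNAs were matched through RefSeq synonyms. Named features were those past a threshold, members of the lists and clusters, and the most abundant ones. The members and lists were chosen with earlier results of these data known. Scaling (edgeR 4.0.16 among others), minimum and threshold were varied, and the procedure was tested on simulated data. Figures used matplotlib 3.10.9. Certain mRNAs of the marker lists are counted but not reported by name here.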

Additional observations from a re-analysis of the deposited data

How the results depend on the processing

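No paired analysis was possible because each genotype had 1 library, and for the same reason no library could be left out. Against 28 higher and 14 lower features, total-count scaling gave 46 and 9, a minimum mean of 5 gave 25 lower, a minimum of 100 gave 14 and 4, no minimum gave 140 and 191, thresholds of 2 and 0.5 gave 11 and 9, and whole intervals past the thresholds gave 12 and 6. Scaling to the total count raised the median log2 ratio of all features by 0.18, and leaving out features above 1% of a library raised it by 0.12. All 5 other scalings raised every ratio, so only lower features could lose their call. Of the 14, 9 stayed lower under all 5, while Mir467d and Mir106b did under none, Mir196b and Mir34c under 3 and Mir100 under 4. The muscle median, 0.75 on the log2 scale, was 0.93 by total counts, 0.87 without features above 1% and 0.66 with each mature name once. The median of the let-7, miR-99/100 and miR-125 clusters, -0.19, was -0.14 with TMM, -0.0068 by total counts, -0.16 with size factors over all 3 libraries, -0.068 without features above 1%, -0.14 with Mir features only and -0.21 with each mature name once. The medians of the miR-29 and the miR-23/27/24 loci went from -0.17 and -0.15 to 0.014 and 0.030 by total counts, and that of the Dlk1-Dio3 locus from 0.08 to -0.037 with a minimum of 100. Depth limits the low features most, since fewer than 50 mean counts leave wide intervals.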

Other observations

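Some miRNAs below the minimum mean count of 15 had an interval that did not include 1. Mir384, known from brain, had 5 reads in Control, 1 in ScxHt and 21 in Dicer cKO, a Dicer cKO/Control ratio of 4.81 (1.77 to 16.3). Mir145b had 9, 8 and 19 reads, a ratio of 2.42 (1.04 to 6.07). Mir877 had 13, 8 and 3 reads, a ratio of 0.264 (0.0483 to 0.962) and its 3 reads are at the floor. These features were named after their values were seen. Features named neither Mir nor mmu-mir held 0.128% of the counts in Control, 0.147% in ScxHt and 0.183% in Dicer cKO. Those named mmu-mir held 0.652%, 0.689% and 0.664%. The median log2 Dicer cKO/Control ratio was -0.05, -0.05 and -0.03 in the low, middle and high group of mature miRNAs by GC content of the mature sequences, and 0.11, 0.02 and -0.17 in the low, middle and high group by mean count.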
